A study of Mus musculus with 9 samples.

Results

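miR-21 is described here across 9 mouse small RNA-seq libraries, as the 2 mature arms of its hairpin, miR-21-5p and miR-21-3p. Every read whose 5′ end lay within 5 nt of the reference start of an arm was counted. The reference start of miR-21-5p was found as the only 5′ end whose read count per mapped read equalled the entry of that name in the study's lists of highly expressed miRNAs, and miR-21-3p was placed from it by the RefSeq hairpin. Reads fell on 18 such 5′ ends, of 1656477 5′ ends in the 9 libraries, and the lists of the study named 414 miRNA starts in all.

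The study asked how the kit used to build a small RNA library changes the miRNAs that are detected. RNA came from MIN6, a mouse insulinoma line used as a model of the pancreatic beta cell, grown in DMEM with 25 mM glucose and 10% heat-inactivated fetal bovine serum, and from liver. Of the 7 MIN6 libraries, 3 were made with the Illumina TruSeq kit (TS-GAIIx) and 3 with the Illumina v1.5 kit (v1.5-GAIIx), all sequenced on the GAIIx at one facility, and 1 with the Bioo Scientific NEXTflex V2 kit on the HiSeq (NF-HiSeq). Both liver libraries were sequenced on the HiSeq, one made with TruSeq (TS-HiSeq-ML) and one with NEXTflex V2 (NF-HiSeq-ML). The liver was that of 1 C57BL/6J female with no genetic change given, 9 weeks old when purchased, that had received saline by tail vein 7 days before it was fasted overnight and killed, so that the liver values hold for 1 animal. Platform, facility and RNA isolation differed between NF-HiSeq and the GAIIx libraries, and cannot be told apart from the kit there. Between MIN6 and liver in TruSeq libraries, the platform and the RNA isolation cannot be told apart from the tissue either. The study also made TruSeq libraries of MIN6 on the HiSeq, which are not among these 9. It reports that their profiles correlated strongly with those of TS-GAIIx, and that NF-HiSeq shared its RNA with a library among them.

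miR-21 is among the best studied miRNAs. Its hairpin is cut from a longer transcript, the 5p arm is the one usually loaded into Argonaute, and the loaded strand finds its targets mainly through the seed, bases 2 to 8 from its 5′ end. It is known as a miRNA that rises with inflammation, injury and tumour growth, it is induced by cytokines in beta cells, and in liver it is found in hepatocytes as well as in stromal and immune cells. Because the seed is counted from the 5′ end, a start moved by 1 base changes the seed, whereas a longer or shorter 3′ end leaves it as it is.

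The mature arms in RefSeq are shown first, with the seed in capitals.
miR-21-5p: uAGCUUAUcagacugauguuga
miR-21-3p: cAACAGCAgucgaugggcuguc
In the GRCm38 annotation the 92-nt hairpin, Mir21a, lies on the minus strand at chr11:86584067-86584158, inside exon 12 of Vmp1 and within its annotated 3′ UTR. The 5p arm is at chr11:86584120-86584141 and the 3p arm at chr11:86584082-86584103. The deposited alignments are to mm9, where the reads gave miR-21-5p the position chr11:86397622-86397643. Reads aligned there to more than 1 place were rare, with 0.00302% of the miR-21 counts divided among places.

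The forms of miR-21-5p that carried most of its reads started at the same base and differed at the 3′ end. They are shown because the libraries differed in which of them was the most common, with the last base in capitals.
21 nt: uagcuuaucagacugauguuG
22 nt: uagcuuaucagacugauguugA
23 nt: uagcuuaucagacugauguugaC
24 nt: uagcuuaucagacugauguugacU
23 nt and A: uagcuuaucagacugauguugacA
23 nt and C: uagcuuaucagacugauguugacC
The 22-nt form is the RefSeq reference, the 23-nt and 24-nt forms continue along the hairpin, and the last pair ends in a base that the hairpin does not have. A base added to the RNA that equals the next base of the hairpin cannot be told from a longer cut.

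The libraries held from 6923460 (TS-GAIIx 1) to 25638871 (NF-HiSeq) counts, of which 10512 to 287440 were miR-21-5p. As sums, marker miRNAs followed the labels. The summed level of the 7 beta cell and endocrine miRNAs, such as miR-375-3p, was 101953 to 385419 RPMM (reads per 1000000 mapped reads) in MIN6 and 797 to 923 RPMM in liver. The main members differed between kits. In NF-HiSeq miR-7a-1-5p was at 130070 RPMM and miR-375-3p at 64950 RPMM. In liver miR-182-5p was at 848 RPMM with TruSeq and 79.1 RPMM with NEXTflex, and miR-7a-1-5p at 3.37 and 372 RPMM. The 4 hepatocyte miRNAs, such as miR-122-5p, summed to 778 to 1524 RPMM in MIN6 and to 110363 and 553460 RPMM in liver. The NEXTflex libraries stood apart in their low values. In NF-HiSeq 40.1% and in NF-HiSeq-ML 34.7% of the 5′ ends with undivided counts had fewer than 20 reads, against 98.6% to 99.2% in the other 7 libraries. A feature at 0 in a NEXTflex library is therefore only listed at 0, with no upper limit given. Intervals for single libraries are exact Poisson (levels) or Wilson (shares) intervals of 95% and cover counting error only.

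Depending on the kit, the same cell line gave about 8 times more or fewer reads of miR-21-5p, and the 3p arm went the other way. In TS-GAIIx replicates 1, 2 and 3 miR-21-5p was at 1582, 1604 and 1635 RPMM. In v1.5-GAIIx it was at 12204, 12643 and 13771 RPMM. All 3 v1.5 libraries were higher than all 3 TruSeq libraries, with means of 12873 ± 808 and 1607 ± 26.6 RPMM (SD, n = 3 each). The ratio of the means was 8.01, and every pair of libraries lay between 7.46 and 8.70. The log2 ratio in edgeR's quasi-likelihood fit over 18125 5′ ends was 3.00 with a standard error of 0.06 and an adjusted p of 3.95e-07. Such calls were the rule in this comparison, as 81.2% of all 5′ ends tested were called, 48.4% higher in v1.5-GAIIx and 32.8% lower. Among the highly expressed named miRNAs alone, 92.8% of 347 features were called. The median log2 ratio over all 5′ ends tested was 0.59.

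miR-21-3p, the arm that is usually degraded, was at 56.9, 50.5 and 62.4 RPMM in TS-GAIIx replicates 1, 2 and 3. In v1.5-GAIIx it was at 22.5, 25.1 and 25.4 RPMM. Here the TruSeq libraries were the higher ones, again with no overlap, and the TruSeq mean was 2.32 times the v1.5 mean. On the log2 scale, with v1.5-GAIIx over TS-GAIIx, the ratio was -1.22 with a standard error of 0.12 (edgeR adjusted p of 9.23e-05). These values rest on 264 to 752 reads per library, far fewer than for the 5p arm.

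The balance of the arms moved accordingly. miR-21-3p made up 3.47%, 3.06% and 3.68% of the reads of both arms in TS-GAIIx replicates 1, 2 and 3. In v1.5-GAIIx it made up 0.184%, 0.198% and 0.184%. The groups did not overlap, with a difference of -3.21 percentage points (v1.5-GAIIx minus TS-GAIIx, exact permutation test, two-sided, p = 0.1). For shares, 3 libraries against 3 cannot give a p below 0.1, and with 20 such shares compared the adjusted value was 0.133 for each of the 15 that reached it.

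**Figure D1:**
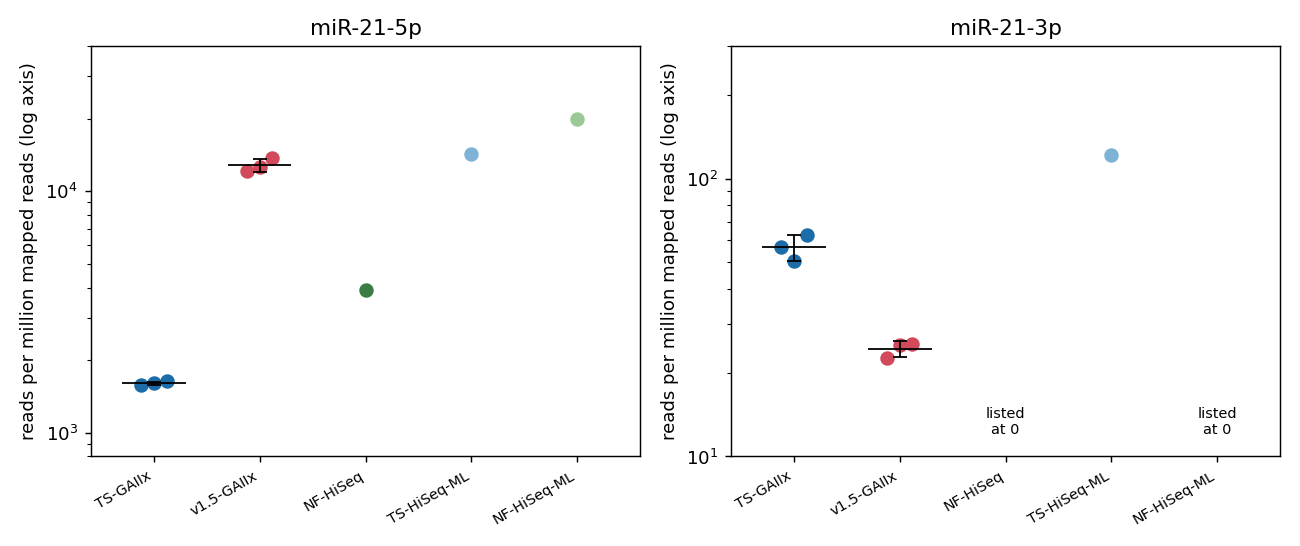
Level of each arm of miR-21, all starts, in RPMM on log axes. Each point is 1 library and the black lines are the mean and SD of the 3 libraries of a group. The 5p arm was highest in liver and in v1.5-GAIIx and lowest in TS-GAIIx (1582 to 1635), the 3p arm was lower in v1.5-GAIIx than in TS-GAIIx, and it was listed at 0 in both NEXTflex libraries.

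In NF-HiSeq, the single NEXTflex library of MIN6, miR-21-5p was at 3896 RPMM (3872 to 3920). This lay between the Illumina kits, 2.42 times the TS-GAIIx mean and 0.303 times the v1.5-GAIIx mean. Of 300 named starts with at least 100 RPMM in one of the groups, 40.7% were more than 2-fold higher in NF-HiSeq than in TS-GAIIx after 1 RPMM was added, and the median ratio was 1.14. With v1.5-GAIIx as the base, 28.5% of 316 named starts were more than 2-fold higher in NF-HiSeq and the median ratio was 0.613. miR-21-3p was listed at 0.

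In liver, miR-21-5p was at 14344 RPMM (14286 to 14402) with TruSeq and at 19978 RPMM (19905 to 20051) with NEXTflex, both made from the RNA of 1 animal. The NEXTflex value was 1.39 times the TruSeq value (counting interval 1.39 to 1.40), both on the HiSeq. The 2.42 given for MIN6 set NF-HiSeq against GAIIx libraries, where platform, facility and RNA isolation differed as well as the kit. The 2 ratios are therefore not alike, and a difference between tissues was not tested. When the libraries were scaled by the sum over the named miRNA starts instead of by mapped reads, the liver ratio turned to 0.813. In the same pair, 22.5% of 178 named starts were more than 2-fold higher with NEXTflex and the median ratio was 0.582. miR-21-3p was at 122 RPMM (116 to 127) in TS-HiSeq-ML and listed at 0 in NF-HiSeq-ML.

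Liver held more miR-21-5p than MIN6 within each kit that had both. With TruSeq the liver value was 8.93 times the MIN6 mean (8.77 to 9.07 over the 3 MIN6 libraries). With NEXTflex it was 5.13 times the MIN6 value (counting interval 5.09 to 5.16). After 1 RPMM was added, 27.6% of 286 named starts were more than 2-fold higher in liver with TruSeq and 18.1% of 265 with NEXTflex. The median ratios of liver over MIN6 were 0.274 and 0.114. Of these starts, 60 with TruSeq and 31 with NEXTflex had a larger ratio than miR-21-5p. The names came from lists of 358 entries for MIN6 and 178 for liver, so the set leans to miRNAs high in MIN6. These shares therefore cannot tell how common higher values in liver were. miR-21-3p was 2.15 times higher in liver than in MIN6 with TruSeq (1.95 to 2.41 over the MIN6 libraries), a smaller step than that of the 5p arm. Across kits the step was smaller, with TruSeq liver at 1.11 times the mean of the v1.5-GAIIx MIN6 libraries, or 1.76 times when scaled by the named miRNA starts.

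Whole liver holds other cells too, and fewer cells of a type and less RNA per cell cannot be told apart in it. The 6 placed miRNAs of the 7 on the endothelial and stromal list summed to 19137 RPMM in TS-HiSeq-ML and 5033 RPMM in NF-HiSeq-ML, against 94.0 to 299.8 RPMM in MIN6. The 4 placed of the 8 on the blood and immune list summed to 10376 and 1788 RPMM in liver, against 2.46 to 42.1 RPMM in MIN6. In MIN6 the hepatocyte marker miR-122-3p had no counts in the 6 GAIIx libraries and was listed at 0 in NF-HiSeq, but miR-122-5p was at 127.7 RPMM in NF-HiSeq, against 0.151 to 2.38 RPMM in the GAIIx libraries, and miR-192-5p was at 249 to 1428 RPMM. Of the blood markers, miR-486-5p was at 33.6 to 36.9 RPMM in TS-GAIIx, 1.40 to 2.46 RPMM in v1.5-GAIIx and 21.5 RPMM in NF-HiSeq. The part of these cells in the liver level of miR-21 was not tested.

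The rank of miR-21-5p moved with the kit as well. Among 294 named reference starts (copies of a miRNA at several loci each counted), it ranked 57, 58 and 57 in TS-GAIIx. In all 3 v1.5-GAIIx libraries it ranked 16, and in NF-HiSeq 34. In liver it ranked 10 with TruSeq and 3 with NEXTflex. In TS-GAIIx the starts just above it were those of miR-411-5p, miR-421-3p and miR-410-3p, and those just below were miR-130b-3p, miR-342-3p and miR-29c-3p, with means from 1770 down to 1416 RPMM. In v1.5-GAIIx it stood between miR-106b-5p (13912 RPMM) and miR-182-5p (12397 RPMM), and below both copies of miR-24-3p. In NF-HiSeq-ML, miR-122-5p and let-7b-5p alone ranked higher.

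The kits differed in the 3′ end of miR-21-5p. In TS-GAIIx the 24-nt reads were the largest class of miR-21-5p, with 38.9%, 38.4% and 38.0% of reads in replicates 1, 2 and 3. In v1.5-GAIIx the 24-nt reads were 6.34%, 6.37% and 6.26%, and the 23-nt reads were instead the largest class with 63.7%, 62.2% and 61.5%. In TS-GAIIx the 23-nt class held only 23.6%, 22.4% and 22.2%. The reference length of 22 nt held 31.8% ± 1.19 of the reads in TS-GAIIx and 22.1% ± 1.28 in v1.5-GAIIx (SD, n = 3 each). None of these classes overlapped between the kits (exact permutation test, two-sided, p = 0.1 for each, the smallest possible).

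In NF-HiSeq the largest class was that of the reference, with 52.1% of reads at 22 nt (51.8 to 52.4), 25.7% at 23 nt and 6.34% at 24 nt. In TS-HiSeq-ML it was again 24 nt, with 45.5% (45.3 to 45.7), followed by 22 nt with 30.2% and 23 nt with 14.9%. In NF-HiSeq-ML it was 23 nt with 39.5% (39.3 to 39.7), followed by 22 nt with 30.7% and 21 nt with 22.6%. All 4 TruSeq libraries, of both tissues, thus had 24-nt reads as the largest class, and the other 5 libraries had 6.26% to 6.70% of reads at 24 nt. Within TruSeq the share of 24-nt reads was higher in liver than in every MIN6 library, and within NEXTflex it was 6.70% in liver and 6.34% in MIN6. The 24-nt reads include those with 23 templated bases and an added A. In both NEXTflex libraries these outnumbered the 24-nt form that matches the hairpin, with 120 against 98.2 RPMM in NF-HiSeq and 716 against 375 RPMM in NF-HiSeq-ML. In v1.5-GAIIx the means were 301 and 428 RPMM, and in TS-GAIIx 13.9 and 540 RPMM.

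**Figure D2:**
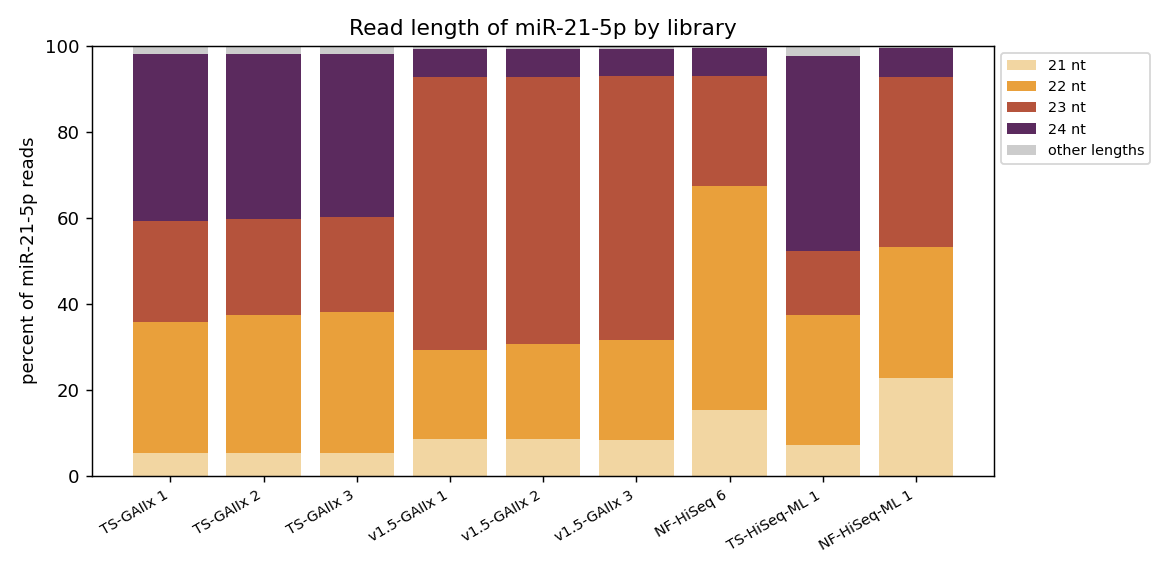
Read length of miR-21-5p in each of the 9 libraries, as stacked percent of its reads at 21, 22, 23 and 24 nt and at other lengths. Reads of 24 nt are the largest class in the TruSeq libraries (38.0% to 45.5%), and reads of 23 nt in v1.5-GAIIx and NF-HiSeq-ML.

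The size of the kit difference depended on the form. The 23-nt form that matched the hairpin throughout was at 348, 329 and 351 RPMM in TS-GAIIx replicates 1, 2 and 3, and at 7294, 7700 and 8289 RPMM in v1.5-GAIIx. That is a ratio of means of 22.7 (log2 ratio 4.50 with a standard error of 0.07, edgeR adjusted p of 2.38e-07). The 24-nt form, 1 base longer, was at 533, 528 and 559 RPMM in TS-GAIIx and at 398, 431 and 454 RPMM in v1.5-GAIIx. It was the TruSeq libraries that were higher here, by 1.26 times (log2 of v1.5 over TruSeq -0.34 with a standard error of 0.07, edgeR adjusted p of 0.0038). In this fit each form was a feature of its own among 18153, of which 81.2% were called, and it was chosen after the values were seen.

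The shorter forms lay between these extremes. The 22-nt reference form had means of 491 and 2756 RPMM in TS-GAIIx and v1.5-GAIIx, a ratio of 5.61. The 21-nt form had means of 80.0 and 1043 RPMM, a ratio of 13.0. The 20-nt form, with 13.1 and 53.5 RPMM, had a ratio of 4.10. The 19-nt form, with 8.76 and 8.24 RPMM, did not pass the test (log2 ratio -0.09, edgeR adjusted p of 0.55). With TMM scaling it passed as lower in v1.5-GAIIx (log2 ratio -0.43, edgeR adjusted p of 0.0229). There were 30 forms of both arms with at least 1 RPMM in 3 or more of the 6 libraries. Of these, 22 were higher in v1.5-GAIIx, 5 were lower and 3 were not called. With the arms summed, 48.4% of all 5′ ends tested were higher and 32.8% lower. A form could pass this filter through 1 kit alone. The 21-nt form that starts 2 bases downstream was at 0 in TS-GAIIx, with a mean of 2.53 RPMM in v1.5-GAIIx. The split is therefore not independent of the level of the arms. Adding or removing 1 base at the 3′ end thus went with ratios from 0.792 to 22.7 for reads with the same first 21 bases.

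The NEXTflex and liver libraries had orders of their own. In NF-HiSeq the 22-nt form was at 1968 RPMM and the 24-nt form at 98.2 RPMM, so that NF-HiSeq was above TS-GAIIx for the former and below every TS-GAIIx library for the latter. In liver the 24-nt form was at 5623 RPMM with TruSeq and at 375 RPMM with NEXTflex. The 23-nt form went the other way in that pair, at 1957 and 7602 RPMM. The 21-nt form was at 993 RPMM with TruSeq and at 4307 RPMM with NEXTflex.

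**Figure D3:**
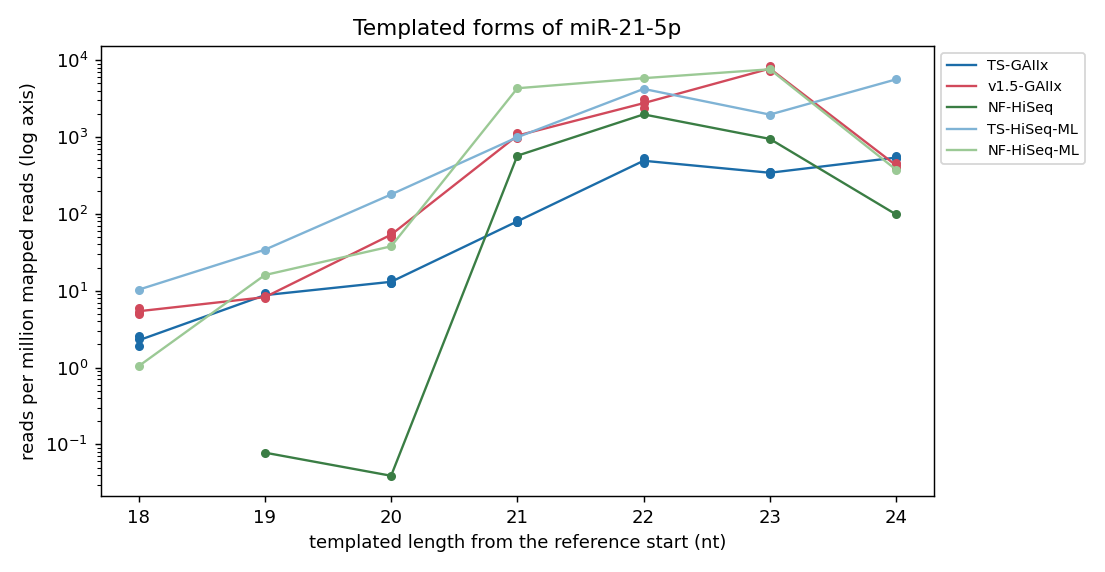
Level of the forms of miR-21-5p that start at the reference base and match the hairpin, by length in nt, in RPMM on a log axis. Points are libraries and lines join the group means. From 23 to 24 nt the v1.5 and NEXTflex lines fall and the TruSeq lines rise, and the GAIIx groups cross (7761 against 342 RPMM at 23 nt, 428 against 540 at 24 nt).

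The 3p arm had the same kind of exchange. Its common forms are shown with the last base in capitals, the 22-nt form being the reference.
21 nt: caacagcagucgaugggcugU
22 nt: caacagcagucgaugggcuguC
Reads of 21 nt made up 82.0%, 81.8% and 83.1% of miR-21-3p in TS-GAIIx replicates 1, 2 and 3. In v1.5-GAIIx they made up 9.15%, 15.0% and 10.2%, and reads of 22 nt made up 86.3%, 80.7% and 84.1%. The 21-nt form was 17.9 times higher in TS-GAIIx (41.3 against 2.31 RPMM, edgeR adjusted p of 1.29e-05). The 22-nt form was 4.33 times higher in v1.5-GAIIx (19.3 against 4.46 RPMM, edgeR adjusted p of 4.03e-05). The 3p arm was thus lower in v1.5-GAIIx as a sum of 2 forms that went in opposite directions. In both arms the largest class of TruSeq reads ended at a U, at 24 nt in the 5p arm and at 21 nt in the 3p arm, and the largest class of v1.5 reads ended at a C, at 23 nt and at 22 nt. In TS-HiSeq-ML the 21-nt reads were 59.4% and the 22-nt reads 22.2% of miR-21-3p (57.3 to 61.6 and 20.5 to 24.1). These classes also hold other starts and added bases. The 21-nt form shown above was at 53.2 RPMM there and the 22-nt form at only 4.91 RPMM. The 22-nt reads that start 1 base downstream and end at a U were at 11.5 RPMM.

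Bases that the hairpin does not have were found at the 3′ end of 3.97% ± 0.107 of the miR-21-5p reads in TS-GAIIx and 3.20% ± 0.0371 in v1.5-GAIIx (SD, n = 3 each). The values did not overlap, but differed by less than 1 percentage point (exact permutation test, two-sided, p = 0.1). The shares were 3.96% in NF-HiSeq, 6.63% in TS-HiSeq-ML and 5.67% in NF-HiSeq-ML. Behind these similar sums stood different bases. A single added A, an addition that the poly(A) polymerase PAPD5 is known to make on miR-21, was on 0.904%, 1.06% and 1.01% of reads in TS-GAIIx replicates 1, 2 and 3. In v1.5-GAIIx it was on 2.53%, 2.58% and 2.56%.

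A single C was on 2.69%, 2.38% and 2.40% of the TS-GAIIx reads and on 0.337%, 0.321% and 0.340% of the v1.5-GAIIx reads, the reverse order. In NF-HiSeq, TS-HiSeq-ML and NF-HiSeq-ML the added A was on 3.14%, 2.00% and 4.32% of reads and the C on 0.524%, 3.68% and 0.535%. The C was thus more frequent than the A in the TruSeq libraries and less frequent in all others. A single added U was on at most 0.359% of reads in any library, and a single G on at most 0.321%.

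Measured against the form it extends, the added A did not separate the Illumina kits. Most of the A was on reads with 23 templated bases. Of the reads that had exactly these 23 bases with or without an A, the A was on 3.48%, 4.23% and 3.99% in TS-GAIIx replicates 1, 2 and 3. In v1.5-GAIIx it was on 3.64%, 3.76% and 3.78%, so that the values overlapped (difference of -0.171 percentage points, exact permutation test, two-sided, p = 0.5). The level of this form went with that of the 23-nt form, with a log2 of v1.5 over TruSeq of 4.44 for the 23-nt form with A and 4.50 for that without. In the HiSeq libraries the A was on 11.1% (10.8 to 11.5) of such reads in NF-HiSeq, on 10.0% (9.71 to 10.3) in TS-HiSeq-ML and on 8.57% (8.42 to 8.73) in NF-HiSeq-ML, all above the GAIIx libraries of both kits.

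**Figure D4:**
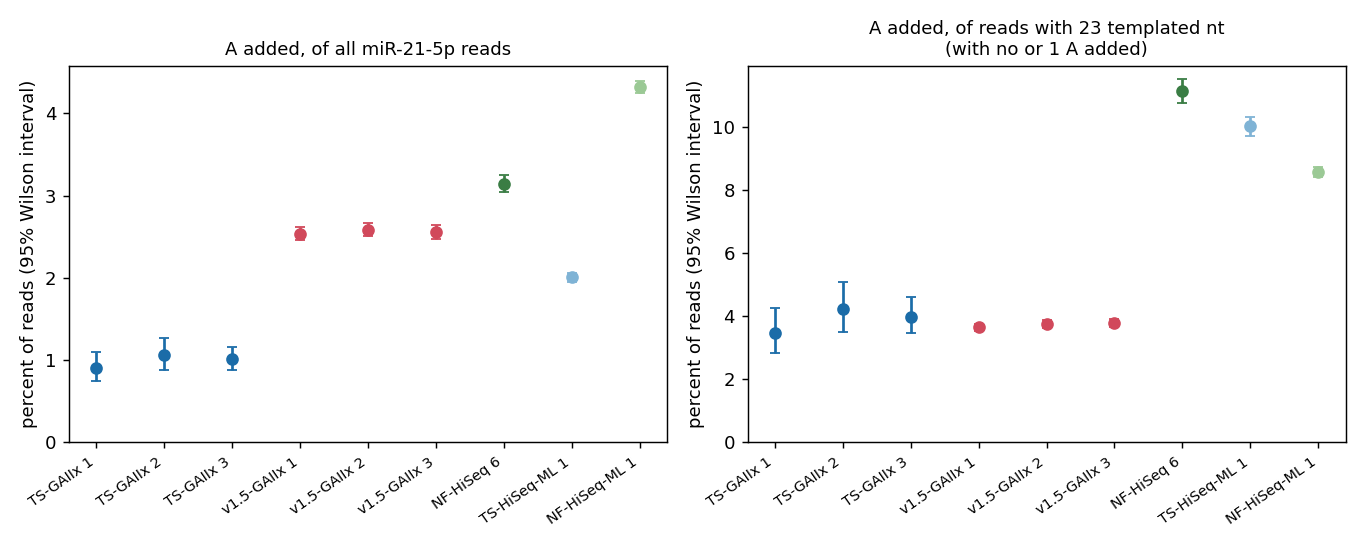
Percent of miR-21-5p reads with a single untemplated A at the 3′ end, of all its reads (left) and of reads with 23 templated bases and no or 1 A (right), by library with 95% Wilson intervals. On the left the GAIIx groups are apart (about 1% and 2.56%), on the right they overlap (3.48% to 4.23%) and the 3 HiSeq libraries are higher (8.57% to 11.1%).

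As a part of all 24-nt reads, those with 23 templated bases and an added A included, the C ranged from 4.97% to 8.25% over the 9 libraries. These shares therefore do not set C against U alone. Of the 24-nt reads from the reference start, those that ended in C where the hairpin has U were 6.88%, 6.12% and 6.26% in TS-GAIIx replicates 1, 2 and 3. In v1.5-GAIIx they were 5.21%, 4.97% and 5.37%, which did not overlap with TS-GAIIx (exact permutation test, two-sided, p = 0.1). In NF-HiSeq they were 8.25%, in NF-HiSeq-ML 8.19% and in TS-HiSeq-ML between 7.84% and 8.16% (Wilson interval). Over all reads of 21 to 24 nt from the reference start, a C was read at each of the 6 U bases between base 2 and base 19 in at most 0.182% of reads in any library. The 23-nt form with C had means of 38.2 RPMM (TS-GAIIx) and 40.5 RPMM (v1.5-GAIIx) and did not pass the test (log2 ratio 0.08, edgeR adjusted p of 0.52). The 24-nt form that matches the hairpin had means of 540 and 428 RPMM. Beside that form alone, the C was thus more frequent in v1.5-GAIIx, the reverse of the order above. In NF-HiSeq the C was at 19.6 against 98.2 RPMM for that form. It was at 104 against 375 RPMM in NF-HiSeq-ML and at 513 against 5623 RPMM in TS-HiSeq-ML.

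The start of miR-21-5p was far more fixed than its end. The reference start held 99.3%, 99.2% and 99.4% of the reads in TS-GAIIx replicates 1, 2 and 3, and 99.2%, 99.2% and 99.3% in v1.5-GAIIx. Reads off it were 0.688% ± 0.126 and 0.758% ± 0.0293 (SD, n = 3 each), which overlapped (exact permutation test, two-sided, p = 0.5). In NF-HiSeq 2.05% of reads were off it (1.96 to 2.13), in TS-HiSeq-ML 1.21% (1.17 to 1.26) and in NF-HiSeq-ML 1.20% (1.16 to 1.24). Summing the starts or taking the reference start alone therefore left the level nearly as it was.

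The few shifted reads are of interest because they carry other seeds, shown in capitals.
start 1 base upstream: aUAGCUUAucagacugauguuga
start 1 base downstream: aGCUUAUCagacugauguuga
Among 1679 mature miRNA names in the RefSeq table, the reference seed is shared by miR-21c, the seed of the downstream start by miR-3965, and the seed of the upstream start and that of miR-21-3p by no other. Neither miR-21c nor miR-3965 was among the 414 named starts. The upstream start was at 8.88, 9.93 and 6.64 RPMM in TS-GAIIx replicates 1, 2 and 3, and at 50.7, 51.9 and 58.0 RPMM in v1.5-GAIIx. It was at 54.5 RPMM in NF-HiSeq, 159.6 RPMM in TS-HiSeq-ML and 91.4 RPMM in NF-HiSeq-ML.

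Not all of these reads were listed with the hairpin's base at the extra position. In the GAIIx libraries 5.88% to 9.21% of them had another letter there, but in NF-HiSeq 59.2% had, in TS-HiSeq-ML 75.0% and in NF-HiSeq-ML 44.3%. Of the reads with another letter, 25.7% in TS-HiSeq-ML and 9.76% in v1.5-GAIIx replicate 1 had N, a base that was not called, and none had N in the other 7 libraries. The 23-nt form of this start that matches the hairpin throughout had means of 5.27 RPMM (TS-GAIIx) and 33.7 RPMM (v1.5-GAIIx) (edgeR adjusted p of 4.33e-05). The downstream start was at 1.66, 1.61 and 1.66 RPMM in TS-GAIIx and at 16.3, 24.4 and 24.6 RPMM in v1.5-GAIIx. It was at 25.2 RPMM in NF-HiSeq, 5.52 RPMM in TS-HiSeq-ML and 127.5 RPMM in NF-HiSeq-ML. In liver the upstream start was the more abundant of the pair with TruSeq and the less abundant with NEXTflex.

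miR-21-3p was less fixed at its start. The reference start held 87.9% to 89.9% of its reads in TS-GAIIx, 91.3% to 94.7% in v1.5-GAIIx and 81.7% in TS-HiSeq-ML. Starts 1 and 2 bases downstream made up 10.7% and 6.38% of it in TS-HiSeq-ML. In the same library 23.9% of miR-21-3p reads (22.1 to 25.8) ended in bases that the hairpin does not have, against 2.60% to 3.46% in TS-GAIIx and 1.00% to 3.03% in v1.5-GAIIx.

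Mismatches inside miR-21-5p reads differed between libraries of the same group. They were on 4.28%, 5.49% and 0.792% of reads in TS-GAIIx replicates 1, 2 and 3, and on 4.29%, 1.05% and 1.15% in v1.5-GAIIx. In 3 libraries a single base stood out, base 2 in TS-GAIIx replicate 1 (2.34% of reads), base 7 in TS-GAIIx replicate 2 (2.62%) and base 4 in v1.5-GAIIx replicate 1 (1.62%), while in the same libraries the median base had at most 0.0718%. The shares of lengths and 3′ additions in these libraries lay beside those of the other replicates.

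Over the 9 libraries, the named start whose level went most closely with that of miR-21-5p was miR-101b-3p, with a Pearson correlation of log2(RPMM + 1) of 0.995 among 411 starts. Its level was 198 to 201 RPMM in TS-GAIIx, 2502 to 2751 RPMM in v1.5-GAIIx, 496 RPMM in NF-HiSeq, and 4495 and 5063 RPMM in TruSeq and NEXTflex liver. Next came both copies of miR-19b-3p, miR-19b-2-3p with 0.985 and miR-19b-1-3p with 0.978, and the starts 1 base downstream of miR-30a-3p (0.970) and of miR-101b-3p (0.965). The 9 points share kits, platforms and tissues, so these values only describe which starts had a similar order of libraries.

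Other miRNAs known to rise with cytokines or injury were a mixed group. Of 11 on that list, 9 were placed, at 10 starts, where 8 rose from TruSeq to v1.5, 1 fell and 1 was not called, with a median log2 ratio of 0.86 against 0.59 over all 5′ ends. Over all 5′ ends tested 48.4% were higher and 32.8% lower in v1.5-GAIIx, and of the highly expressed named miRNAs 92.8% were called, 194 of 347 as higher. miR-34a-5p, a target of p53, had a log2 ratio of 3.10, close to that of miR-21-5p. It was at 30.6, 29.6 and 35.6 RPMM in TS-GAIIx replicates 1, 2 and 3 and at 261, 293 and 269 RPMM in v1.5-GAIIx. miR-146a-5p, induced by NF-kB, was at 338, 453 and 389 RPMM in TS-GAIIx and at 720, 638 and 615 RPMM in v1.5-GAIIx. miR-212-3p was lower in v1.5-GAIIx, with a log2 ratio of -0.43, and miR-221-3p was not called, with 0.04 (edgeR adjusted p of 0.78). Within TruSeq, miR-29a-3p was at 4302 to 4598 RPMM in MIN6 and 0.485 RPMM in liver. Within NEXTflex it was at 6580 RPMM in MIN6 and 176 RPMM in liver, so that its liver level depended on the kit. miR-221-3p was at 17.1 to 20.4 RPMM in MIN6 and 264 RPMM in liver with TruSeq, and at 47.8 and 388 RPMM with NEXTflex. Like miR-21-5p, miR-221-3p was thus higher in liver, whereas miR-29a-3p was lower. The members of the list therefore did not all share the liver to MIN6 order of miR-21-5p.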

How the data were processed

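The 9 deposited files hold 1 line per distinct alignment to mm9, with an edit string and an expected count, made by the authors, who trimmed adapters with cutadapt (and 4 nt from each end of NEXTflex reads) and aligned with Bowtie (versions not given in the sources used here), dividing a read among its equally good places. These counts were used as deposited and only rounded for count tests. RPMM is counts over the study's mapped reads. Trimming and alignment were not repeated, and reads held no molecular identifiers. The edit strings were read against the RefSeq hairpin (GRCm38.p6), and no edit letter equalled the hairpin base. Names came from a join by value (relative tolerance 3e-05, lists showing 0 under 10 reads).

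edgeR 4.0.16 (quasi-likelihood, Benjamini-Hochberg) was run in R 4.3.3 on the 6 GAIIx libraries over 5′ ends with at least 1 RPMM in 3 libraries, and the script was tested on simulated data. Other tools were DESeq2 1.42.0, matplotlib 3.10.9, scipy 1.17.1, pandas 2.3.3 and numpy 2.4.6 (Python 3.11.15). Shares were compared by exact permutation. The study calls the replicates of MIN6 biological, and no replicate pair differed by as little as sampling noise (chi-square per degree of freedom 29.4 to 102.4).

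Named were, by rule, both arms, the 5 most correlated miRNAs, 3 neighbours by rank, members of a list of cytokine- and injury-induced miRNAs, and cell type markers. The members and lists were chosen with earlier results of these data known. The alternatives are TMM, DESeq2 size factors and test, other library sizes, filters and starts, whole-number counts, the replicate block and leaving out each library.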

Additional observations from a re-analysis of the deposited data

Results flagged for a closer look

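Reads on the miR-21 hairpin outside both arms were found ahead of miR-21-5p. They were chosen by a start near the first base of the hairpin, and not by where they ended. They were outside the arms compared above and were above the 3 reads that a count of 0 allows in 8 of 9 libraries. Their commonest form was uguaccaccuugucgga, 17 nt, the first bases of the hairpin. This form ended at the base before the first of miR-21-5p. All reads with such a start were at 52.2, 54.8 and 62.8 RPMM in TS-GAIIx replicates 1, 2 and 3. They were at 10.1, 10.8 and 10.9 RPMM in v1.5-GAIIx, at 1.49 RPMM in NF-HiSeq and at 57.0 RPMM in TS-HiSeq-ML. NF-HiSeq-ML listed none. In TruSeq MIN6 libraries they were thus as abundant as miR-21-3p, and like it they were lower in v1.5-GAIIx. No cause was tested.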

How the results depend on the processing

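Of 115 alternative values for 16 results, 98 were classed as the same, 15 moved and 2 reversed. The same meant an unchanged direction and call for the tested levels of the arms, but only an unchanged sign for shares. For counts of calls it meant a similar number. For ratios with single libraries it meant a value within replicate spread or counting error, with no test. The log2 ratio of miR-21-5p was 2.67 with TMM and 2.64 with DESeq2 size factors, and that of miR-21-3p -1.56 and -1.59, a shift of all 5′ ends by about 0.33 and 0.37. Leaving out 1 library gave 2.95 to 3.04 for miR-21-5p and -1.29 to -1.14 for miR-21-3p. In the main fit 14716 of 18125 5′ ends were called (81.2%). With no filter it was 27373 of 707467 (3.87%), with whole-number counts 4375 of 7173 (61.0%), and among named starts 322 of 347. The share off the reference start reversed to -0.0162 points with starts within 2 nt.

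With the replicate block the log2 ratios were 3.00 and -1.21 (edgeR adjusted p of 2.93e-05 and 0.00117), with 14483 5′ ends called. Deviations of same-numbered libraries correlated at 0.0947, 0.187 and 0.191, and those of other pairs at -0.153 to -0.00613. Each library thus correlated best with its own number. As not all of the former were above 0.1, the main fit and the permutation tests did not take the numbers as pairs. A pairing by number remains possible.

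For miR-21-5p, scaling by the sum of deposited counts gave 2.51 for NF-HiSeq over TS-GAIIx, 1.51 for NEXTflex over TruSeq liver and 8.56 for TruSeq liver over TS-GAIIx. Scaling by the named starts gave 2.03, 0.813 (reversed) and 13.1, and 0.273 for NF-HiSeq over v1.5-GAIIx, 1.76 for TruSeq liver over v1.5-GAIIx and 5.25 for NEXTflex liver over NF-HiSeq (5.17 at the reference start only). For miR-21-3p it gave 3.15 and 7.90 for TruSeq liver over TS-GAIIx and v1.5-GAIIx (the latter 4.37 at the reference start only). Single libraries have no replicate check, and low values of NEXTflex libraries could not be read as absence.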
